A study of Mus musculus with 13 samples.

Results

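The glypicans Gpc1 to Gpc6 and the syndecans Sdc1 to Sdc4 are the 10 genes that encode the core proteins of the cell surface heparan sulfate proteoglycans. They were taken by gene symbol from the 55487 genes counted by poly-A RNA-seq in mouse embryonic fibroblasts (MEFs), 13 libraries in all, and all 10 were found. The study's methods describe the culture for wild-type MEFs. Primary MEFs (pMEFs) were passaged to senescence in serum-containing medium, and the serum share was then raised. The colonies that grew out gave immortalized lines (iMEFs), which were expanded with the serum share used for pMEFs. The state and the culture history thus cannot be told apart. The wild-type (WT) libraries were 3 pMEF libraries, clones 3, 4 and 5, and 3 iMEF libraries, 1 line per clone. The Prkd3-/- libraries, from MEFs labelled as lacking protein kinase D3, were 3 pMEF libraries, clones 13, 14 and 15, and 4 iMEF libraries, the lines 13, 13a, 14 and 15. No added agent, Cre or transgene is given for any group, and each iMEF line is a single library. Whether lines 13 and 13a came from separate immortalizations is not given.

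A glypican is held on the outer face of the membrane by a glycosylphosphatidylinositol (GPI) anchor, and a syndecan crosses the membrane with a short cytoplasmic tail. Both carry heparan sulfate, sulfated sugar chains that bind growth factors, Wnt and hedgehog ligands and matrix proteins and can present them to their receptors. Syndecans act as co-receptors of integrins in the adhesion of fibroblasts, and loss of GPC3 in humans causes an overgrowth syndrome. The chains are built and sulfated in the Golgi by shared enzymes, so the core protein and the enzymes together set what a cell displays.

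Library totals ranged from 55436367 to 90654323 counts in WT and from 35273408 to 100441756 in Prkd3-/- MEFs, and 3 counts corresponded to between 0.0277 and 0.0842 CPM (counts scaled to a common library size, with TMM factors over the 13 libraries). Beyond counting noise, a gene varied by a coefficient of variation of 5.52% among WT pMEFs, 42.4% among WT iMEFs, 30.4% among Prkd3-/- pMEFs and 55.7% among Prkd3-/- iMEFs. All 10 fibroblast markers reached 1 CPM in a library of every group. Their summed CPM was 40062 to 40955 in WT pMEFs and 24207 to 34807 in Prkd3-/- pMEFs. It was 31225 to 68382 in WT iMEFs and 18786 to 31383 in Prkd3-/- iMEFs. The summed CPM of 10 macrophage markers was 1382 to 1426 in WT pMEFs and 55.2 to 132 in WT iMEFs. It was 157, 1976 and 380 in Prkd3-/- pMEFs 13, 14 and 15, and 17.8, 322, 12.9 and 19.4 in the lines 13, 13a, 14 and 15. Prkd3 itself was counted at 69.2 to 93.7 CPM in WT and 33.6 to 61.0 CPM in Prkd3-/- libraries, lower in each Prkd3-/- library than in each WT library but present in all, and counts of whole genes do not resolve exons.

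Gpc3 and Gpc4 lie next to each other on the X chromosome, which makes the sex of the embryos a property of the groups to be known. The 3 WT pMEF libraries held both Xist, the RNA of the inactive X, at 43.9 to 55.9 CPM, and the Y-linked Ddx3y at 51.6 to 63.7 CPM. In the 7 Prkd3-/- libraries Xist was between 0 and 0.156 CPM, while Ddx3y was between 47.4 and 154 CPM. Among WT iMEFs, line 3 had Xist at 170 CPM and Ddx3y at 0.209 CPM, line 4 had 157 and 33.2 CPM, and line 5 had 56.0 and 65.1 CPM. The genotypes thus differed in these transcripts and also came in separate deposited tables, and neither can be told apart from the genotype.

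The promoter windows of the genes differed in their number of CpGs, from 10 to 32 among those matched. RefSeq promoter windows on GRCm38.p6 were matched for 7 of the 10 genes (not for Gpc1, Gpc6 and Sdc2), and the 250 bases before the start are given for 3 genes whose levels were at the extremes: Gpc3, which was high in pMEFs and near zero in most iMEFs, Gpc5, which was hardly counted in any library, and Sdc3, which was abundant in all. Each is printed 5′ to 3′ in the direction of the gene, and capitals mark CpG dinucleotides.
Gpc3: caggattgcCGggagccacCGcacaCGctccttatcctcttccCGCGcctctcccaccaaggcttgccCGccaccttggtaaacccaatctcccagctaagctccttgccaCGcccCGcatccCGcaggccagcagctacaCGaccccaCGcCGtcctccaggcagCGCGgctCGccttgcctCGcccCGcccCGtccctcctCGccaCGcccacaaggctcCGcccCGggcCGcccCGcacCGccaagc
Gpc5: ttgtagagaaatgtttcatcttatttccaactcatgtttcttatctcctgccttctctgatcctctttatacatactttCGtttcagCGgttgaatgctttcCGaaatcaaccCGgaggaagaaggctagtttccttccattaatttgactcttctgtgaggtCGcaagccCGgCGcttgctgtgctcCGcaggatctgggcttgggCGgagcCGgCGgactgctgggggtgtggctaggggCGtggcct
Sdc3: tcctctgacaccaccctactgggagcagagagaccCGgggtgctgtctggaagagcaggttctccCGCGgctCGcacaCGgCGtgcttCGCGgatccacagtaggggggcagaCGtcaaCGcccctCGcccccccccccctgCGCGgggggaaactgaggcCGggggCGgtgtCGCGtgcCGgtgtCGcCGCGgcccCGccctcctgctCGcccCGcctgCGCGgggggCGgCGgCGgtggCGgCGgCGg
The Gpc3 window (chrX:52613975-52614224, minus strand) held 25 CpGs and the Sdc3 window (chr4:130792287-130792536, plus strand) held 32, where the median of 32851 promoters was 6. As many CpGs as in Gpc3 were found in 10.7% of all promoters, and as many as in Sdc3 in 4.58%. The Gpc5 window (chr14:115091965-115092214, plus strand) held 12, a count reached by 33.5% of promoters, and it was the only one of the 7 with the letters TATAAA on either strand, which 12.4% of all promoters hold. The fewest CpGs of the 7 windows, 10, were in that of Sdc1, which had a mean of 229 CPM in WT pMEFs, so the number of CpGs did not follow the level. GGGCGG, which contains a CpG, was found on either strand in 7 of 7 windows and in 32.7% of all promoters. These are matches of letters and no measurement of the promoters was made.

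The members were chosen by gene family with the CPM of these libraries, by state within genotype, already seen, so the values of iMEFs against pMEFs are a description and carry no p-value. A gene is called where it passed both thresholds in edgeR, an adjusted p of under 0.01 together with a |Log2FC| of 1 or more. In WT MEFs, 1 of the 9 members tested was called, Gpc3, against 1.82% of the 19836 genes tested. In Prkd3-/- MEFs, 0 of 9 members were called by edgeR and 0 by DESeq2, where edgeR called 0% of 20298 genes, with 1331 at an unadjusted p under 0.05, and DESeq2 called 190 genes. DESeq2 gave no adjusted p for Gpc3 in Prkd3-/- MEFs (Log2FC −3.71), so it could not call this gene. Gpc5 did not pass the filter on low counts. The median Log2FC of the 9 members was 0.06 in WT MEFs, where that of all genes tested was 0.04, and −0.32 in Prkd3-/- MEFs, where that of all genes was 0.07.

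Gpc3 (ENSMUSG00000055653, chrX:52272426-52613950), a glypican that binds hedgehog and Wnt proteins, was the member with the largest difference. It was counted at 131, 126 and 114 CPM in WT pMEFs 3, 4 and 5, and at 0.322, 1.81 and 0.61 CPM in the iMEF lines 3, 4 and 5. Each line thus lay far below each pMEF library, at 383, 68.1 and 202 times less than the pMEF mean. The mean was 123 ± 8.95 CPM in pMEFs and 0.914 ± 0.790 CPM in iMEFs (SD, n = 3 each), and the Log2FC was −7.08 (SE 0.71). The call was lost with the clone as a block in a paired fit (Log2FC −7.36), with no filter on low counts, in a joint fit of the 13 libraries, and without WT pMEF 3, 4 or 5 or WT iMEF 5, where the Log2FC stayed between −7.13 and −6.85.

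Gpc3 in Prkd3-/- MEFs stood at 69.0, 28.3 and 29.7 CPM in pMEFs 13, 14 and 15. In the lines 13, 13a, 14 and 15 it stood at 0.0191, 12.0, 0.672 and 0.324 CPM. Line 13 held 1 count of Gpc3, and its ratio to the pMEF mean of 42.3 CPM has a 95% interval, from counting error only, of 398-fold to 87599-fold lower. Lines 14 and 15 were 63.0 and 131 times below that mean, and line 13a was 3.53 times below it. The groups did not overlap, and the Log2FC was −3.70 (SE 1.60) with line 13a and −6.95 without it. Line 13a was also the iMEF line with the highest macrophage marker sum, whereas among the Prkd3-/- pMEFs the library with the highest sum, 14, had the lowest Gpc3 and the library with the lowest sum, 13, the highest. The part of macrophage RNA in the level of Gpc3 was not tested, and in bulk libraries fewer cells of a type and less RNA per cell cannot be told apart.

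**Figure D1:**
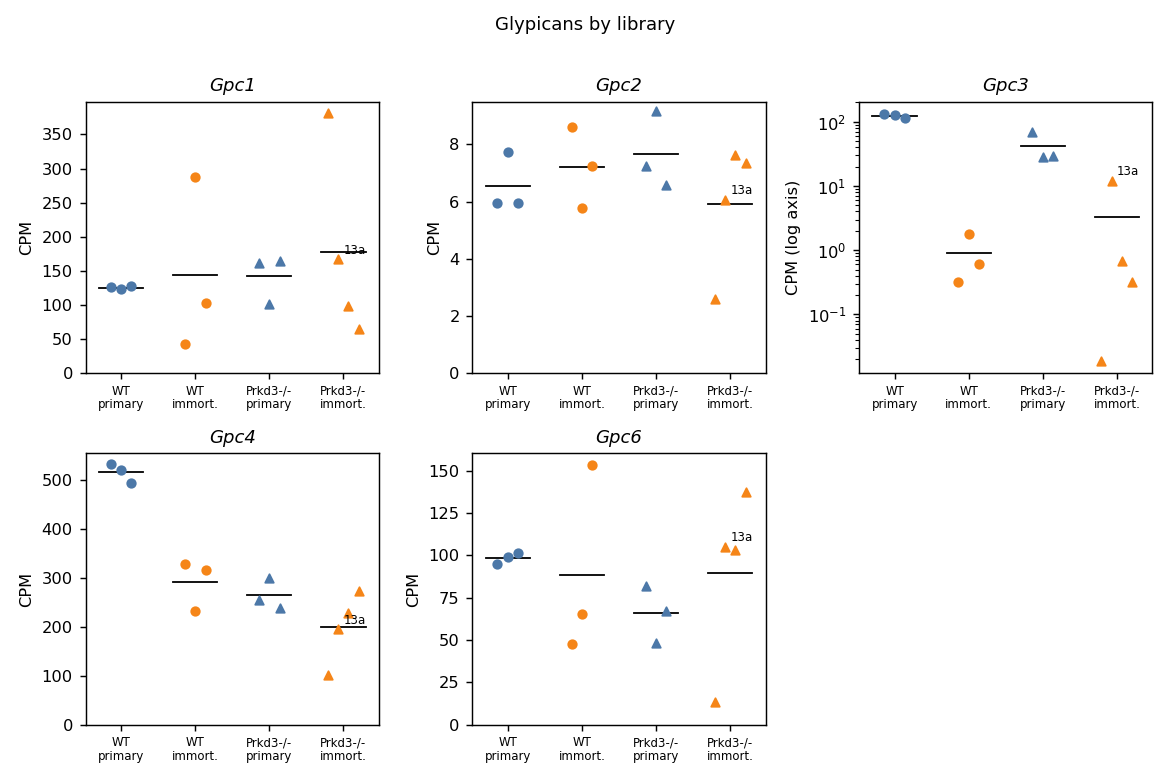
CPM of 5 glypicans in each library, by genotype and state (circles WT, triangles Prkd3-/-, blue pMEFs, orange iMEFs, black bars the group means; log axis for Gpc3 only, and linear axes from 0 for the others). Gpc3 is above 28 CPM in all 6 pMEF libraries and below 2 CPM in 6 of 7 iMEF lines, with line 13a at 12.0 CPM, while Gpc1 and Gpc6 spread widely among lines.

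Gpc4 (ENSMUSG00000031119, chrX:52053021-52165252) was the most abundant glypican, and on the minus strand, which both genes use, its start lies 107 kb from the end of Gpc3. It was counted at 534, 522 and 495 CPM in WT pMEFs and at 329, 232 and 316 CPM in the WT lines 3, 4 and 5. All 3 lines were below all 3 pMEF libraries, and the Log2FC was −0.82 (SE 0.16), under the fold threshold. Prkd3-/- pMEFs had 255, 301 and 238 CPM and their lines 13, 13a, 14 and 15 had 101.7, 196, 229 and 274 CPM. Here the groups overlapped through line 15, and the Log2FC was −0.41 (SE 0.33).

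The genes around the pair were not called. This held for the 3 nearest genes tested on each side, Mbnl3, Gm5388 and Hs6st2 at lower coordinates than Gpc4 and Gm14586, Rps2-ps13 and Phf6 at higher coordinates than Gpc3, in both genotypes. As only 1.82% of all genes tested were called in WT and 0% in Prkd3-/- MEFs, the absence of calls says little about the region. Hs6st2, a heparan sulfate 6-O-sulfotransferase 371 kb away, had a Log2FC of 0.52 (SE 0.51) in WT and 0.06 (SE 0.20) in Prkd3-/- MEFs. Phf6, a chromatin-associated protein 298 kb away, had 0.07 (SE 0.10) and 0.37 (SE 0.28). Over the X chromosome, the median Log2FC was 0.07 among 683 genes in WT and 0.12 among 692 genes in Prkd3-/- MEFs.

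Gpc1 (ENSMUSG00000034220, chr1:92831645-92860779), a glypican of many adult tissues that binds fibroblast growth factors, varied widely between lines. It was nearly level in WT pMEFs, at 126, 123 and 128 CPM. In the WT lines 3, 4 and 5 it stood at 41.7, 287 and 102.1 CPM, so line 4 was above and lines 3 and 5 below the pMEFs. Prkd3-/- MEFs had 162, 101 and 164 CPM as pMEFs and at 381, 167, 98.6 and 64.2 CPM in the lines 13, 13a, 14 and 15. The Log2FC was 0.20 (SE 0.65) in WT and 0.30 (SE 0.58) in Prkd3-/- MEFs, each smaller than its error. Of the exon bases of Gpc1, 18.9% are shared with Ankmy1, whose reads cannot be separated in these counts.

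Gpc6 (ENSMUSG00000058571, chr14:116925315-117976544), a glypican linked to skeletal growth, had the same kind of spread. It was at 94.9, 98.8 and 101 CPM in WT pMEFs and at 47.4, 65.3 and 153 CPM in the lines 3, 4 and 5. Among Prkd3-/- MEFs it was at 81.8, 48.1 and 67.4 CPM in pMEFs, at 13.3 CPM in line 13 and at 105, 103 and 138 CPM in the lines 13a, 14 and 15. Line 13 was below, and the other lines were above, all 3 pMEF libraries. The Log2FC was −0.15 (SE 0.44) in WT and 0.45 (SE 0.67) in Prkd3-/- MEFs.

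Lines 13 and 13a were taken from their labels as lines of the same clone, and they differed in these glypicans. Line 13 had the highest Gpc1 and the lowest Gpc3, Gpc4 and Gpc6 of the 4 Prkd3-/- lines, and line 13a had the highest Gpc3. Line 13 also had the lowest Gpc2, Sdc2 and Sdc3 and the highest Sdc1 and Sdc4 of the 4 lines.

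Gpc2 and Gpc5 were the glypicans with the lowest levels. Gpc2 (ENSMUSG00000029510, chr5:138273655-138280005), known from the developing nervous system, ranged from 5.93 to 7.74 CPM in WT pMEFs, from 5.77 to 8.62 CPM in WT iMEFs, from 6.59 to 9.16 CPM in Prkd3-/- pMEFs and from 2.60 to 7.64 CPM in Prkd3-/- iMEFs, and the groups overlapped. Of its exon bases, 55.6% are shared with Gm43720, so its level is uncertain. Gpc5 (ENSMUSG00000022112, chr14:115092215-116525179) was counted 7 times in WT pMEF 3 and between 0 and 2 times in each of the other 12 libraries, at or under the floor of 3 counts. Gpc5 lies 400 kb before Gpc6, and so an abundant and a nearly uncounted glypican were neighbours here. None of the 3 nearest tested genes on each side of that pair (Slitrk5, Tpm3-rs7, Mir17hg, Tgds, Gpr180 and Abcc4) was called in either genotype, where 1.82% of all genes tested were called in WT and 0% in Prkd3-/- MEFs.

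The syndecans were counted in all libraries and were not called in either genotype. Sdc1 (ENSMUSG00000020592, chr12:8771323-8793715), the main syndecan of epithelia and plasma cells, was at 227, 229 and 230.3 CPM in WT pMEFs and at 191, 228 and 297 CPM in the lines 3, 4 and 5. Prkd3-/- MEFs had it at 294, 193 and 243 CPM in pMEFs and at 255, 218, 249.9 and 138 CPM in the lines 13, 13a, 14 and 15. The groups overlapped in both genotypes, with a Log2FC of 0.06 (SE 0.18) and −0.19 (SE 0.26).

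Sdc2 (ENSMUSG00000022261, chr15:32920723-33034935), a syndecan of mesenchymal cells, was at 279, 274 and 262 CPM in WT pMEFs and at 265, 403 and 266 CPM in the WT lines. It was at 213, 208 and 211 CPM in Prkd3-/- pMEFs and at 161, 252, 359.7 and 259 CPM in the lines 13, 13a, 14 and 15. One line in each genotype, 4 and 14, stood above the rest, and the Log2FC was 0.19 (SE 0.19) and 0.29 (SE 0.27).

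Sdc3 (ENSMUSG00000025743, chr4:130792537-130826319), best known from neurons and muscle progenitors, was at 404, 389.7 and 385 CPM in WT pMEFs and at 323, 465 and 341 CPM in the WT lines, with a Log2FC of −0.06 (SE 0.17). For Prkd3-/- MEFs it was at 414, 472 and 535 CPM in pMEFs and at 144, 368, 300.3 and 279.8 CPM in the lines 13, 13a, 14 and 15. All 4 lines lay below all 3 pMEF libraries, and the Log2FC was −0.80 (SE 0.32). The genes of chromosome 4, on which Sdc3 lies, had a median Log2FC of −0.29 in Prkd3-/- and −0.20 in WT MEFs, and the part of the chromosome in the level of Sdc3 was not tested. Of its exon bases, 7.73% are shared with Gm26716. Groups that do not overlap, with iMEFs lower, were found for 2 of 9 members in each genotype, Gpc3 and Gpc4 in WT and Gpc3 and Sdc3 in Prkd3-/- MEFs, against 17.4% and 5.26% of all genes tested. No member was higher in WT iMEFs without overlap, where 13.9% of all genes were.

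Sdc4 (ENSMUSG00000017009, chr2:164424247-164443887), the syndecan of focal adhesions, had the largest spread of the 4. It was at 165, 163 and 168 CPM in WT pMEFs and at 282, 77.0 and 159 CPM in the lines 3, 4 and 5. Line 3 was above and lines 4 and 5 were below the pMEFs, the reverse of the order of Gpc1 for lines 3 and 4. The Prkd3-/- pMEFs 13, 14 and 15 had 278, 106 and 288 CPM and the lines 13, 13a, 14 and 15 had 249, 179, 150.4 and 144 CPM. The Log2FC was 0.06 (SE 0.44) and −0.32 (SE 0.37).

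**Figure D2:**
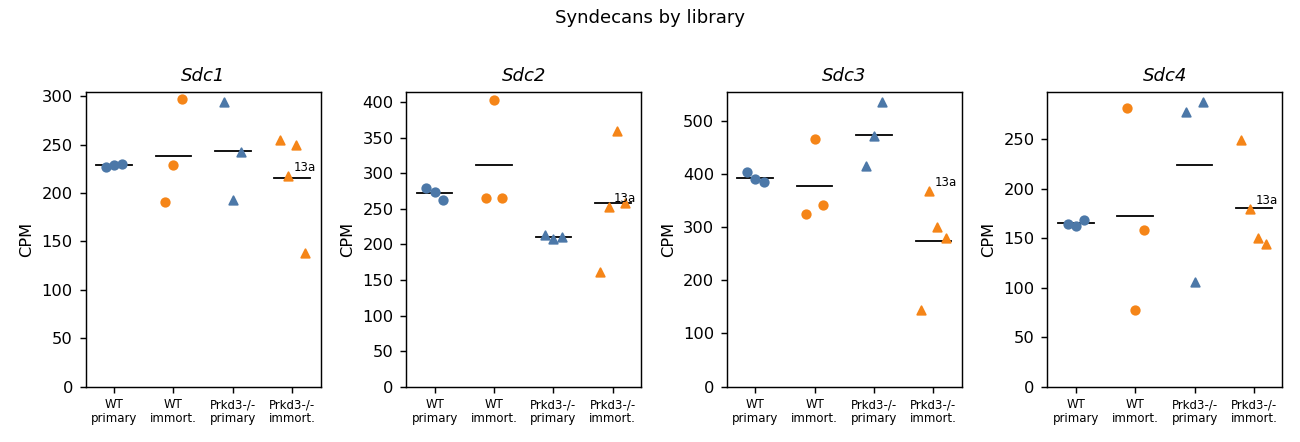
CPM of the 4 syndecans in each library on linear axes from 0 (circles WT, triangles Prkd3-/-, blue pMEFs, orange iMEFs, black bars the group means). Only Sdc3 in Prkd3-/- MEFs has states that do not overlap, with iMEFs between 144 and 368 CPM and pMEFs between 414 and 535 CPM.

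Per kilobase of exon, which allows genes to be compared, the order in WT pMEFs was Gpc4 at 195 ± 7.54, Gpc3 at 45.8 ± 3.33, Gpc1 at 24.3 ± 0.516, Gpc6 at 15.3 ± 0.512 and Gpc2 at 1.53 ± 0.243 CPM per kilobase (SD, n = 3), with no overlap between neighbours. In WT iMEFs Gpc4 remained first at 110 ± 19.9 CPM per kilobase, Gpc1 at 27.8 ± 24.8 and Gpc6 at 13.8 ± 8.82 overlapped, and Gpc3 came after Gpc2. Gpc4 made up 68.9% to 69.3% of the glypican sum in WT pMEFs and led the glypicans in 12 of 13 libraries. The exception was the Prkd3-/- line 13, in which Gpc1 made up 64.3% of the sum. The share of Gpc3 was 15.6% to 16.8% in WT pMEFs and 0.0846% to 0.434% in WT iMEFs, and in Prkd3-/- MEFs it was 6.86% to 15.3% in pMEFs and 0.00618% to 3.47% in iMEFs.

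The glypican sum was 270.7 to 290.4 CPM per kilobase in WT pMEFs and 142 to 165 in WT iMEFs, without overlap. Prkd3-/- MEFs had 145 to 168 in pMEFs and 115 to 139 in iMEFs, also without overlap. The syndecan sum was 265 to 271 CPM per kilobase in WT pMEFs and 273 to 289.8 in WT iMEFs, also without overlap but with iMEFs slightly higher. It was 229.7 to 326 in Prkd3-/- pMEFs and 213 to 277 in Prkd3-/- iMEFs, with overlap. The leading syndecan changed from library to library. It was Sdc2 in all 3 WT pMEF libraries, with 28.1% to 29.2% of the sum, while in the WT lines 3, 4 and 5 it was Sdc4, Sdc2 and Sdc1. In WT pMEFs Sdc2 was at 77.1 ± 2.42 and Sdc1 at 60.1 ± 0.416 CPM per kilobase, and between them Sdc3 at 65.6 ± 1.63 and Sdc4 at 64.9 ± 1.16 overlapped.

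**Figure D3:**
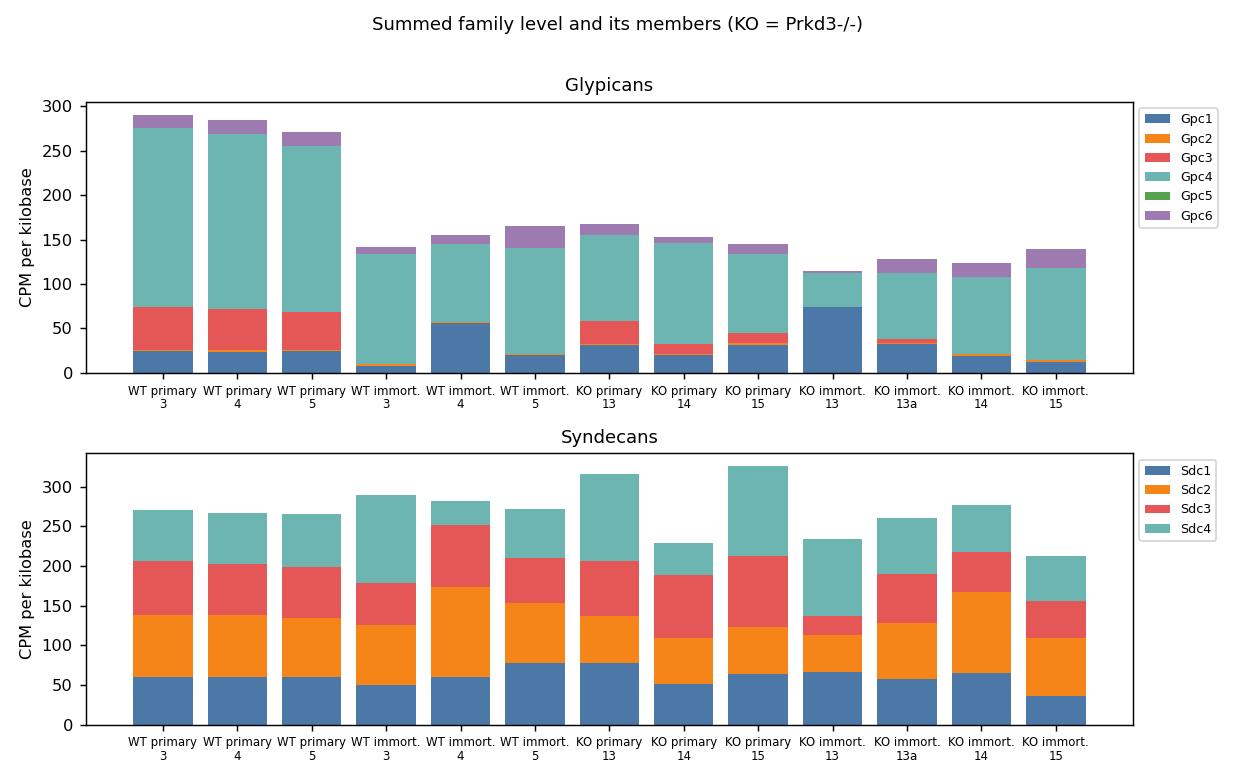
Summed CPM per kilobase of the glypicans (top) and the syndecans (bottom) in each of the 13 libraries, stacked by gene, from 0. The glypican sum is highest in the 3 WT pMEF libraries, at 270.7 to 290.4, and is mostly Gpc4 except in the Prkd3-/- line 13, and the syndecan sum lies between 213 and 326 in all libraries.

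The comparison of genotypes was not the one by which the genes were chosen, and p-values are given for it. The CPM of the same libraries had been seen by then, so these p-values, and those of the interaction, are not an independent test. In pMEFs, 0 of 9 members passed the thresholds in edgeR, where 0.765% of 20403 genes did. At an unadjusted p under 0.05 there were 5 members, Gpc3, Gpc4, Gpc6, Sdc2 and Sdc3, where 24.1% of all genes reached it, and DESeq2 called 1, Gpc3. Gpc4 came closest in edgeR, with a mean of 517 ± 20.0 CPM in WT and 265 ± 32.6 CPM in Prkd3-/- pMEFs (SD, n = 3 each), a Log2FC of −0.95 (SE 0.11) and an edgeR adjusted p of 0.0111. All 3 Prkd3-/- libraries were below all 3 WT libraries. Gpc3 also did not overlap, at 123 ± 8.95 and 42.3 ± 23.1 CPM, with a Log2FC of −1.53 (SE 0.36) and an edgeR adjusted p of 0.0625. Without Prkd3-/- pMEF 13 the Log2FC of Gpc3 was −2.06 (edgeR adjusted p = 0.00199), and without Prkd3-/- pMEF 14 that of Gpc4 was −1.06 (edgeR adjusted p = 4.27e-05), so each passed without 1 particular library. With the other libraries left out in turn neither passed, and the edgeR adjusted p reached 0.223 for Gpc3 and 0.0798 for Gpc4.

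Of the other members, Sdc2 was at 272 ± 8.53 CPM in WT and 211 ± 2.85 CPM in Prkd3-/- pMEFs (Log2FC −0.35, SE 0.07, edgeR adjusted p = 0.0417), and Gpc6 at 98.4 ± 3.29 and 65.8 ± 16.9 CPM (Log2FC −0.56, SE 0.18, edgeR adjusted p = 0.125). Sdc3 had values in the other direction, 393 ± 9.76 and 473 ± 60.5 CPM (Log2FC 0.29, SE 0.12, edgeR adjusted p = 0.202). The groups thus did not overlap in 4 members with lower and 1 with higher values in Prkd3-/- pMEFs, where 18.8% and 15.5% of all genes tested did so. Of the 10 fibroblast markers, 6 were lower and 1 was higher in the same way. Whether the members went with these markers was not tested. The remaining 4 members overlapped between genotypes, with edgeR adjusted p-values between 0.437 and 0.714.

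In iMEFs, 0 of 9 members passed the thresholds between genotypes, where 0.0406% of 19683 genes did. No member reached an unadjusted p under 0.05 in edgeR, DESeq2 called 0, and the lowest edgeR adjusted p, of Gpc4, was 0.764. DESeq2 gave no adjusted p for Gpc3 here and could not call it. Gpc3 had a Log2FC of 1.84 (SE 1.75, edgeR adjusted p = 0.826), which was −1.41 without line 13a. Whether the effect of immortalization differed by genotype was tested with an interaction term in a fit of the 13 libraries. Of the 9 members, 0 had an adjusted p under 0.05 in edgeR, 0 an unadjusted p under 0.05 and 0 a call in DESeq2, where edgeR called 0% of 21197 genes, with 841 at an unadjusted p under 0.05, and DESeq2 38. For Gpc3 DESeq2 again gave no adjusted p. The interaction of Gpc3 was 3.38 on the log2 scale (SE 1.90, edgeR adjusted p = 1) and 0.14 without line 13a. That of Sdc3 was −0.73 (SE 0.39, edgeR adjusted p = 1).

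**Figure D4:**
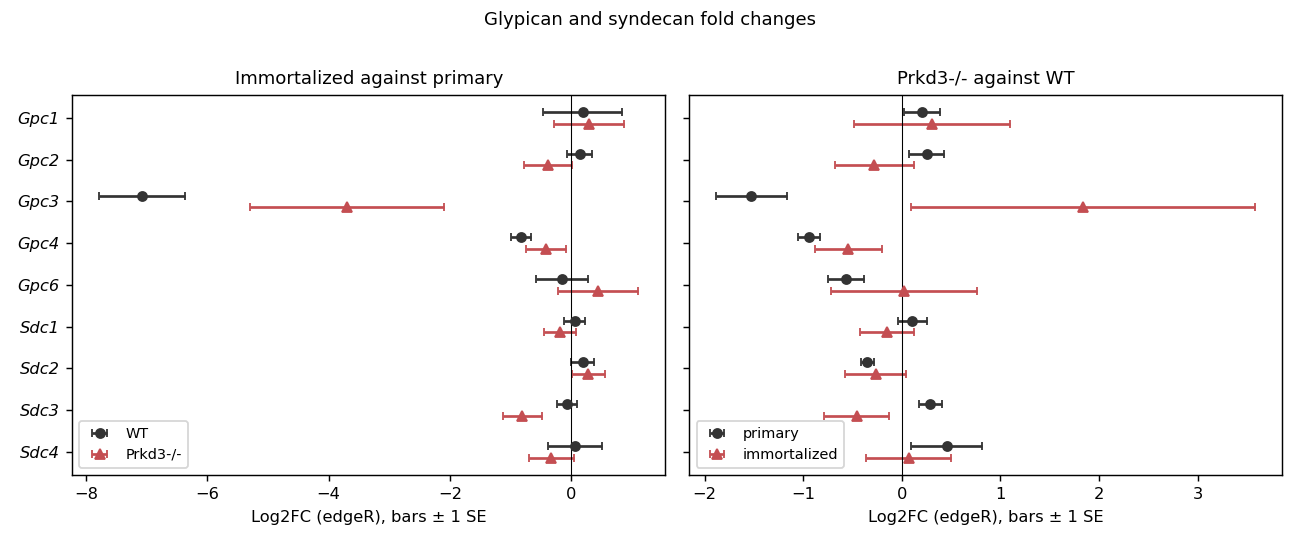
Log2FC with bars of 1 SE for the 9 members tested, of iMEFs against pMEFs in each genotype (left) and of Prkd3-/- against WT in each state (right). Gpc3 has the lowest Log2FC on the left, −7.08 in WT and −3.70 in Prkd3-/- MEFs, and on the right Gpc3 and Gpc4 lie at −1.53 and −0.95 in pMEFs.

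The enzymes that make and edit heparan sulfate are not members, and 39 of them in 3 lists were examined beside the core proteins. In WT iMEFs, 2 of the 35 tested passed both thresholds, both with lower values, where 1.82% of all genes tested passed. In Prkd3-/- iMEFs edgeR called 0 of 35, where it called 0% of all genes tested. DESeq2 called 1, where it called 190 over all genes. An unadjusted edgeR p under 0.05 was reached there by 3 of the 35 and by 6.56% of all genes. The median Log2FC of the 35 was −0.21 in WT and −0.14 in Prkd3-/- MEFs, where that of all genes tested was 0.04 and 0.07. Between genotypes 0 of 36 passed in pMEFs, where 0.765% of all genes tested did. An unadjusted edgeR p under 0.05 was reached by 10 of the 36 and by 24.1% of all genes. DESeq2 called 2, where it called 833 over all genes.

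Both genes that fell belong to the modification of the chain. Of the 16 genes of that list 13 were tested, and their median Log2FC in WT was −1.29, with 9 of them lower and 2 higher without overlap between the states, where 17.4% and 13.9% of all genes tested were lower and higher in this way. The genes at or below that median had low means in WT pMEFs, from 0.514 (Hs6st3) to 12.1 CPM (Hs3st3b1). Those above it had 42.2 (Ndst2) to 217 CPM (Hs6st2). Among them Ndst1, Glce and Hs6st2 had a Log2FC of 0.35, 0.73 and 0.52, and Hs2st1, Hs6st1 and Ndst2 of −0.04, −0.50 and −0.58. Hs3st1, which adds the 3-O-sulfate needed for the binding of antithrombin, had 3.76, 3.47 and 6.20 CPM in WT pMEFs. Its WT lines 3, 4 and 5 held 3, 2 and 6 counts, or 0.0483, 0.0339 and 0.0915 CPM, so 2 of them were at or under the floor of 3 counts. The Log2FC was −6.21 (SE 0.47, edgeR adjusted p = 0.00249). In Prkd3-/- MEFs Hs3st1 was at 4.84, 1.26 and 4.66 CPM in pMEFs and at 1.76, 1.55, 0.297 and 0.121 CPM in the lines 13, 13a, 14 and 15, with overlap (Log2FC −1.96, SE 0.94, edgeR adjusted p = 0.788). The difference between the genotypes was 4.27 on the log2 scale (SE 1.26, edgeR adjusted p = 1).

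Ndst3, an N-deacetylase and N-sulfotransferase that acts early in sulfation, had 2.04, 1.79 and 2.61 CPM in WT pMEFs and 0.209, 0.356 and 0.29 CPM in the WT lines. The Log2FC was −2.90 (SE 0.30, edgeR adjusted p = 0.00635). In Prkd3-/- MEFs it was at 1.96, 2.18 and 3.39 CPM in pMEFs and at 1.24, 2.74, 0.235 and 9.56 CPM in the lines 13, 13a, 14 and 15, so that line 15 was above and line 14 far below all pMEFs. The calls of Hs3st1 and Ndst3 in WT were both lost with the clone as a block (edgeR adjusted p = 0.0223 and 0.0666), in the joint fit of 13 libraries, in limma and without WT pMEF 3, 4 or 5, where the Log2FC stayed between −6.37 and −5.91 for Hs3st1 and between −3.02 and −2.74 for Ndst3. That of Ndst3 was also lost without WT iMEF 4 (Log2FC −3.09) or 5 (Log2FC −2.92).

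The other modification and editing genes did not pass, and 3 of them were picked for mention after their values were seen. Glce, the epimerase that converts glucuronic to iduronic acid, was at 55.4 ± 2.02 CPM in WT pMEFs and 91.9 ± 4.09 CPM in WT iMEFs (SD, n = 3 each), with a Log2FC of 0.73 (SE 0.08, edgeR adjusted p = 0.00646), under the fold threshold. Its Log2FC in Prkd3-/- MEFs was −0.20 (SE 0.23, edgeR adjusted p = 0.884). Hs3st3b1, another 3-O-sulfotransferase, was at 12.1 ± 0.192 and 2.53 ± 1.16 CPM in WT pMEFs and iMEFs (Log2FC −2.26, edgeR adjusted p = 0.0327), and at 6.05 ± 0.189 and 2.50 ± 0.659 CPM in Prkd3-/- pMEFs and iMEFs (Log2FC −1.29, edgeR adjusted p = 0.421). The pMEFs of the genotypes did not overlap (Log2FC −0.98, SE 0.09, edgeR adjusted p = 0.00399), just under the fold threshold. Sulf1, which removes 6-O-sulfates outside the cell, was at 625 ± 14.8 and 289.9 ± 112 CPM in WT (Log2FC −1.11, edgeR adjusted p = 0.13) and at 691 ± 182 and 345 ± 69.9 CPM in Prkd3-/- MEFs (Log2FC −1.02, edgeR adjusted p = 0.486). Its states did not overlap in either genotype.

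**Figure D5:**
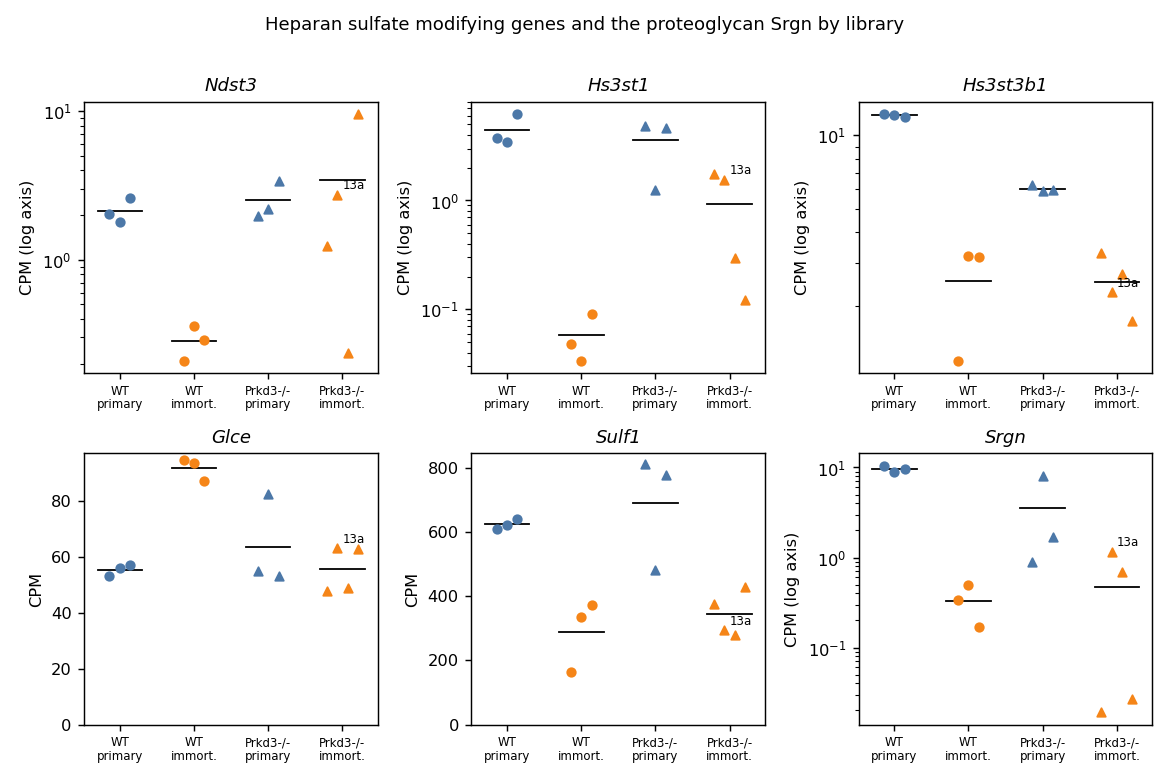
CPM of 5 genes of heparan sulfate modification and editing and of Srgn in each library (circles WT, triangles Prkd3-/-, blue pMEFs, orange iMEFs, black bars the group means; log axes for Ndst3, Hs3st1, Hs3st3b1 and Srgn, linear axes from 0 for Glce and Sulf1). The WT states of all 6 genes do not overlap, and in Prkd3-/- MEFs this holds for Hs3st3b1 and Sulf1.

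In the lists for the linker and chain synthesis (12 of 12 tested) and for chain editing and degradation (10 of 11 tested), 0 genes passed in either genotype. The same count of 0 was found for the release of the core proteins (12 of 13 tested), which includes the GPI-cleaving Notum and the sheddases Adam10 and Adam17, and for the cytoplasmic partners of syndecans (10 of 10 tested), such as syntenin (Sdcbp) and Prkca. For hedgehog pathway genes, whose ligands glypicans bind, 0 of 12 passed in WT and 0 of 11 in Prkd3-/- MEFs. Over all genes tested, 1.82% passed in WT and 0% in Prkd3-/- MEFs. Of 9 other proteoglycans, 1 fell in WT and 0 passed in Prkd3-/- MEFs. It was Srgn, the granule proteoglycan of blood cells, at 10.4, 8.99 and 9.55 CPM in WT pMEFs and 0.338, 0.491 and 0.168 CPM in the lines (Log2FC −4.86, SE 0.41, edgeR adjusted p = 0.00312). With the clone as a block its edgeR adjusted p was 0.0378, and its call was also lost in the joint fit and without WT pMEF 3, 4 or 5 (Log2FC between −4.91 and −4.80).

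Srgn and the macrophage marker sum had their highest values in the same libraries of each Prkd3-/- group. In Prkd3-/- pMEFs 13, 14 and 15 it was at 0.887, 8.15 and 1.71 CPM, and in the lines 13, 13a, 14 and 15 at 0.0191, 1.17, 0.688 and 0.027 CPM, so that pMEF 14 and line 13a were highest in their groups, as they were in the marker sum. The order differed among the other libraries, since line 14 had the lowest marker sum of its group but more Srgn than lines 13 and 15, and the WT lines 3, 4 and 5 had Srgn in the reverse order of their marker sums of 97.2, 55.2 and 132 CPM. Of the 10 macrophage markers 7 fell in WT, among them Cd68 (Log2FC −4.47, SE 0.13, edgeR adjusted p = 0.000254) and C1qa (Log2FC −4.14, SE 0.11, edgeR adjusted p = 0.000254), and 0 of 10 passed in Prkd3-/- MEFs, where edgeR called 0% of all genes tested. All 10 had a negative Log2FC in both genotypes, with a median of −4.30 in WT and −3.43 in Prkd3-/- MEFs. Of 6 endothelial markers 1, Tek, fell in WT (Log2FC −4.78, SE 0.41, edgeR adjusted p = 0.00317). The summed levels of the 8 epithelial markers were at most 4.37 CPM in any library. The part of such cells in the levels of Hs3st1, Ndst3 and Srgn was not tested.

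By Pearson correlation of log2 CPM over the 13 libraries, the genes most like Gpc3 were St8sia4 (r = 0.964), a polysialyltransferase, A230050P20Rik (0.963), Zc3h12d (0.958), Arfgef3 (0.958) and Sema4d (0.958), a semaphorin. These are 13 points that share the contrast of states, and the values are a description. St8sia4 was at 11.0 to 11.8 CPM in WT pMEFs and 0.0762 to 0.305 CPM in WT iMEFs, and line 13a was the highest Prkd3-/- line in all 5 genes, as it was in Gpc3. The genes most like Sdc4, the syndecan with the largest spread (SD of log2 CPM 0.562), were Gm43327 (r = 0.908), Pitpnm3 (0.895), Krt19 (0.892), an epithelial keratin, Vtcn1 (0.88) and Tpbg (0.868). Krt19 ranged from 8.36 to 12.6 CPM in WT pMEFs and from 0.237 to 37.8 CPM in WT iMEFs, and from 7.17 to 59.1 CPM in Prkd3-/- pMEFs and from 1.88 to 129 CPM in Prkd3-/- iMEFs. It was not among the 8 epithelial markers summed above.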

How the data were processed

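Poly-A RNA was read in pairs of 100 bases. The authors deposited raw counts per gene in a table per genotype. For WT, the study's methods give STAR 2.7.10a (mm10), Samtools 1.18 and featureCounts of Subread 2.0.6 on Ensembl release 102. The submitters' processing notes list these tools also for Prkd3-/- libraries. Counting ignored strand and assigned pairs to every overlapping gene, so reads on exons common to several genes count for each. Symbols came from a GENCODE annotation for 55141 of 55487 genes.

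The counts were fitted with edgeR 4.0.16 in R 4.3.3 (quasi-likelihood test, TMM, filterByExpr, robust) per comparison, with Benjamini-Hochberg adjustment over all genes tested. The thresholds are those of the study (adjusted p under 0.01, |Log2FC| of at least 1), with adjusted p under 0.05 for the interaction. SE is the Log2FC divided by the square root of F. CPM used TMM factors over 13 libraries, and log2 CPM a prior count of 1. Counting intervals and the floor of 3 counts cover counting error only. Fits were also run on simulated counts with 1 dispersion, 0.04, for every group and 8-fold changes in 200 genes. These were all recovered in each comparison, but the simulation did not copy the unequal spread of the groups here. Per the study's methods the WT clones came from different embryos. For the Prkd3-/- libraries the sources used here give only clone numbers, so the spread behind their p-values may be technical. The same may hold for WT pMEFs. Each of their libraries held both Xist and Ddx3y, and they varied by 5.52% beyond counting noise, against 30.4% in Prkd3-/- pMEFs. Whether each WT pMEF library stands for 1 embryo was not tested, and p-values that rest on their small spread may be too low.

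The members, lists and tests were chosen with earlier results of these data known. Named are all members, per list and genotype up to 4 called genes with the smallest p, the 5 genes most like the glypican and the syndecan with the largest spread, and the 3 nearest tested genes beside member pairs. The clone number pairs pMEFs with the iMEF line grown from them. The correlation of their deviations from group means was −0.04, 0.04 and −0.05 for clones 3, 4 and 5, and 0.16, −0.30, 0.09 and 0.03 for lines 13, 13a, 14 and 15. The study's methods state no block, and one was used only as an alternative. Alternatives were DESeq2 1.42.0, other scalings and filters, limma 3.58.1, a clone block, a joint fit, lines 13 and 13a summed and each library left out.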

Additional observations from a re-analysis of the deposited data

Results flagged for a closer look

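Gpc3 in the 4 immortalized Prkd3-/- lines had 1 sample far from the others on the scale of CPM. Line 13a, at 12.0 CPM, was separated from the next line, at 0.672 CPM, by 0.945 of the range of the group, above Dixon's 95% critical value for 4 samples. The other 8 members tested in this way (all but Gpc5) gave no such gap. Chance gives 1 in about 20 groups for values with a normal distribution, which CPM over such a range need not have. The rule was applied to CPM already seen and not to log2 CPM, so it is a flag and not a test. In ratio, line 13, with 1 count (0.0191 CPM), also lay far below the next line, 15, at 0.324 CPM. The macrophage marker sum of line 13a, 322 CPM, was also above those of the other lines, 12.9 to 19.4 CPM, and its part in the level of Gpc3 was not tested.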

How the results depend on the processing

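The count of 1 member called in WT MEFs became 0 with no filter on low counts, in the joint fit of 13 libraries and with the clone as a replicate block, and 0 to 1 with each library left out. In Prkd3-/- MEFs, in the interaction and between genotypes in iMEFs, the count of members stayed at 0 under every alternative run, the replicate block of the first 2 included. Gpc3 could not be called in some of these runs. It had no adjusted p in DESeq2, and the filter of at least 10 counts in every library removed it. Between genotypes in pMEFs the count of members was 1 in DESeq2 and 0 to 1 with a library left out. For the heparan sulfate enzymes in WT MEFs, the count of 2 became 5 in DESeq2, 4 at an adjusted p under 0.05, 1 with at least 10 counts in every library, 0 in limma, with the replicate block and in the joint fit, and 0 to 3 with a library left out, and in Prkd3-/- MEFs it was 1 in DESeq2. The Log2FC of Gpc3 between genotypes in iMEFs turned from 1.84 to −0.27 in limma and ranged from −1.41 to 2.80 with a library left out. The cause was not tested.

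Over all genes in WT MEFs, 361 were called, 1354 in DESeq2, 868 at an adjusted p under 0.05, 157 with at least 10 counts, 198 in limma, 0 with the block or in the joint fit, and 48 to 743 with a library left out. Between genotypes, 156 were called in pMEFs (833 in DESeq2, 607 at an adjusted p under 0.05, 335 with no filter, 88 with at least 10 counts, 2 to 1456 with a library left out) and 8 in iMEFs (181 in DESeq2, 13 at an adjusted p under 0.05, 5 in limma, 0 to 10 with a library left out). The joint fit called 1 gene in Prkd3-/- MEFs, and leaving out a library gave 0 to 2 in the interaction. Scaling by library size alone moved the median Log2FC of all genes from 0.04 to −0.10 in WT, from 0.06 to 0.18 in the interaction and from 0.06 to 0.21 between genotypes in iMEFs. At these depths a gene under 3 counts cannot be ranked.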
